A study of Drosophila melanogaster with 8 samples.

Results

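The vacuolar proton pump (V-ATPase) genes were taken as the rows of the count tables whose symbol begins, case-sensitive, with Vha. The rule found 20 of 14161 genes. All 20 matched a gene of the Ensembl annotation of BDGP6.54, 13 under their current symbol and 7 under an older one. Another 14 genes carry a Vha symbol today but stood in the tables under a CG number. They were outside the rule and are described only where they bear on a subunit's paralogs.

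The V-ATPase is a rotary enzyme that pumps protons into lysosomes, endosomes and secretory vesicles, and across the plasma membrane of some epithelia. Its V1 sector, in the cytosol, splits ATP on a ring of A and B subunits and turns a central stalk of D and F. Its V0 sector, in the membrane, holds the proteolipid ring of c subunits that carries protons past subunit a. Many subunits have several genes in Drosophila, of which usually 1 is active in most tissues and the others are restricted to places such as the testis, gut or nervous system.

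The libraries are mRNA-seq of S2R+ cells, an embryo-derived Drosophila line that resembles hemocytes, the fly's blood cells. All cells were transfected with Actin:dCas9-VPR, a Cas9 that does not cut DNA, joined to a transcriptional activator and named for the Actin promoter. The 4 groups of 2 libraries received Twist guides (5 guide RNAs upstream of twi), Snail guides (5 upstream of sna), Twist and Snail guides (both pools) or control guides, which the sample labels direct to the promoter of a luciferase reporter and the treatment text calls non-targeting. Their libraries are called Twist, Snail, both-pools and control libraries. twi and sna encode transcription factors of the embryonic mesoderm.

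Library totals were 10752993 to 13351166 counts. The labels held: twi had 345 and 384 counts with Twist guides, 164 and 137 with both pools, and 0 in the Snail and control libraries, while sna had 1079 to 1485 counts in the 4 libraries with Snail guides and 0 to 2 in the others. Of 10 hemocyte markers, 8 passed the filter on low counts, with a summed level of 503 to 656 CPM (the usual counts-per-million scale, with library sizes adjusted by TMM factors) over the 8 libraries. Among these defining markers, nimC1 (0 to 0.18 CPM) and eater (0 to 0.417 CPM) were at or near 0 and Hml was low (0.275 to 1.76 CPM), so srp, ush, Pxn and crq carried most of the sum. The 8 that passed include fz (6.93 to 10.4 CPM), whose use as a hemocyte marker was not checked. Of other tissues' lists, 3 of 4 neuronal markers found passed the filter (sum 12.0 to 17.9 CPM), 2 of 5 muscle markers (36.4 to 53.2 CPM, of which Mef2 gave 35.2 to 52.4), 2 of 7 testis and germline markers (3.44 to 6.76 CPM, with can and dj at 0) and 2 of 8 tubule and gut markers (16.7 to 32.6 CPM, with Irk2 at 0). Replicates were least alike in the control group. The median absolute log2 difference between replicates was 0.18 over 8029 tested genes in the control pair, while the Twist, Snail and both-pools pairs had 0.11, 0.09 and 0.09. Across 7957 genes, the control difference (replicate 2 minus 1) had a Spearman correlation of 0.34 with exon length, and across the 17 tested V-ATPase genes one of 0.69. In the Twist, Snail and both-pools pairs the correlation was -0.19, 0.07 and -0.18 over all genes and 0.39, -0.15 and -0.56 over the V-ATPase genes. The points of each correlation share the same pair of libraries.

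For each subunit listed here, the cell line expressed at least 1 gene, usually with 1 dominant. For 1 accessory subunit that gene was CG8029 (VhaAC45), which is outside the rule. Of the 20 genes, 17 passed the filter on low counts (a minimum of 10), and the same number had a mean of at least 1 CPM. Their means ran from 27.2 CPM (Vha68-1) to 1860.0 CPM (Vha16). The remaining 3, Vha100-3, Vha16-2 and Vha16-3, had 0 counts in all 8 libraries, which hold 94354611 counts and so allow a level of up to 0.0318 CPM each, counting error only. Vha100-3 is a paralog of subunit a, and Vha16-2 and Vha16-3 are paralogs of the c subunit that lie 985 bases apart on chromosome 3L. Among the 14 genes outside the rule, 5 passed the filter, 5 had some counts below it, and 4 had none.

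Some expressed and silent copies lay side by side in the genome. Vha68-2 (chromosome 2L, 12974322 to 12978607) ends 178 bases from CG5075, which is Vha68-3, a subunit A paralog known mainly from testis, with 23 counts in all libraries together. Vha68-1 (2L, 13000770 to 13004107) follows 19.5 kb further on. Vha100-2 (3R, 18390323 to 18399169) lies 517 bases from CG7678, the subunit a paralog Vha100-4, which had 11 counts in all. VhaPPA1-1 (3R, 14902330 to 14904061) lies 2.05 kb from CG7026, its testis paralog VhaPPA1-2, which had 0 counts. At these sites the neighbours differed in level, while the neighbours Vha16-3 and Vha16-2, 985 bases apart, were alike at 0 counts. Of the other genes described at length, the positions were Vha44 (2R, 16324813 to 16336637), Vha26 (3R, 5591763 to 5595356), Vha55 (3R, 12623762 to 12627829), Vha100-1 (3R, 29131193 to 29137980) and VhaAC39 (X, 3880748 to 3882967). Few exons are shared with other genes: 503 bases of Vha16-2 overlap asRNA:CR46049, 148 bases of Vha44 overlap Hmgs and 11 bases of Vha100-1 overlap Alg13, each on the opposite strand. The sources used here do not give the strand setting of the counting, nor how reads in such overlaps were treated, and the 0 counts of Vha16-2 are to be read with that limit.

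**Figure D1:**
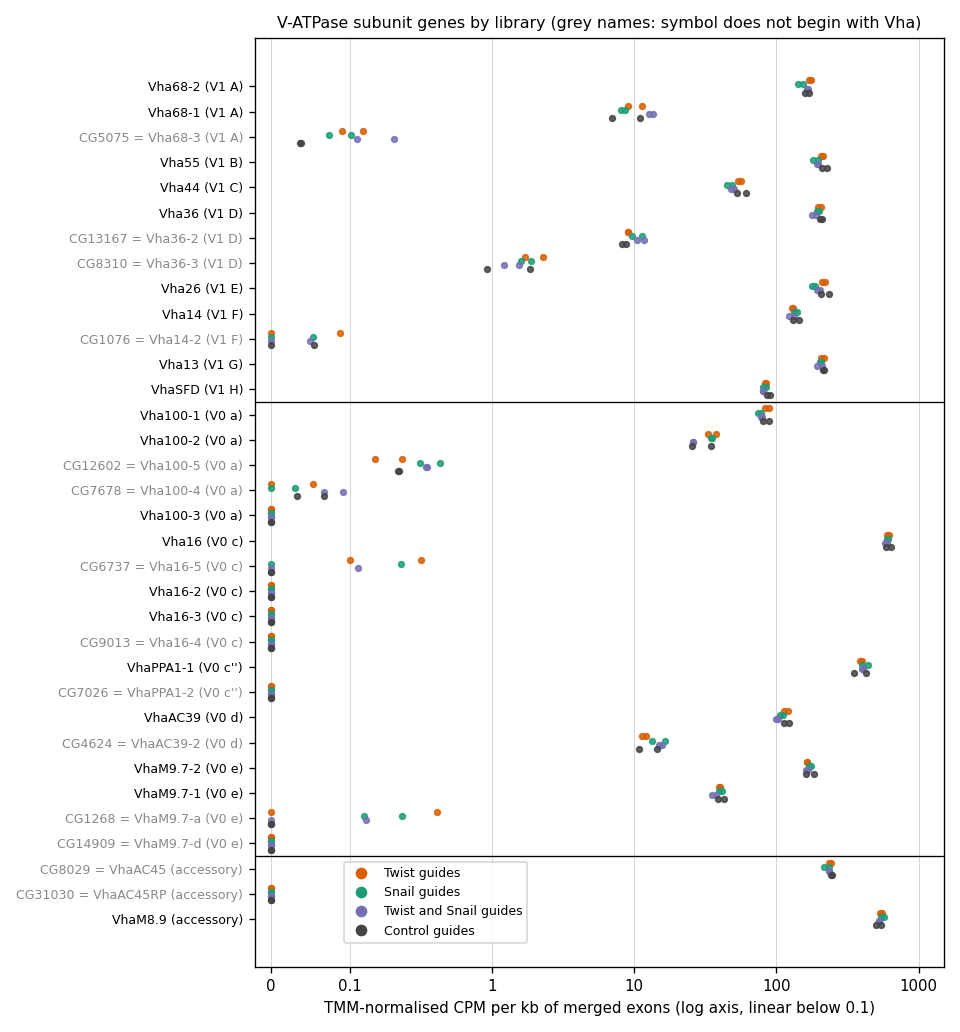
TMM-normalised CPM per kb of merged exons (x axis, log scale, linear below 0.1) for each V-ATPase subunit gene (rows, with sector and subunit), 1 point per library coloured by guide group. The 17 expressed Vha genes lie between 7.04 and 642 CPM per kb in every library, Vha100-3, Vha16-2 and Vha16-3 lie at 0, and names in grey are subunit genes outside the rule.

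Per kb of exon, the proteolipid genes and the accessory subunit stood highest. The mean over 8 libraries was 605 ± 18.2 CPM per kb (SD, n = 8) for Vha16, which encodes the c subunit that the ring holds in several copies. VhaM8.9 (current symbol ATP6AP2, the prorenin receptor homolog) had 536 ± 20.3 and VhaPPA1-1, the c'' proteolipid, 401 ± 27.03 CPM per kb. Next came 4 V1 genes that did not differ beyond their spread: Vha13 (207 ± 7.39), Vha26 (203 ± 18.5), Vha55 (202 ± 14.4) and Vha36 (196, SD 5.09% of the mean). VhaM9.7-2 (168) and Vha68-2 (162) were also within their spread of each other. Below them stood Vha14 (133), VhaAC39 (111), VhaSFD (83.6), Vha100-1 (81.2), Vha44 (52.1), VhaM9.7-1 (39.3), Vha100-2 (31.6) and Vha68-1 (10.2 CPM per kb). With the median transcript length in place of merged exons, VhaM9.7-2 stood at 213, Vha26 at 262 and Vha44 at 77.8 CPM per kb, so the order within the middle of the range depends on the length used.

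The V1 genes differed little across groups. In these bulk libraries, fewer cells of a type and less RNA per cell cannot be told apart. Vha68-2, which gives most of subunit A, the ATP-binding subunit, had 483 and 466 CPM (Twist), 388 and 422 (Snail), 459 and 453 (both pools) and 435 and 468 (control). Vha55, the only gene of subunit B, had 594 and 573.5 CPM (Twist), 502 and 544 (Snail), 544 and 536 (both pools) and 579 and 631 (control). In both genes the Snail libraries lay below the control libraries, although by small margins in replicate 2 of Vha68-2. The peripheral stalks are built from E and G. Vha26, subunit E, had 609.6 and 644 CPM (Twist), 542 and 523 (Snail), 560.5 and 590.5 (both pools) and 604 and 687 (control). Vha13, subunit G, had 203 and 192.5 CPM (Twist), 192 and 193 (Snail), 183 and 197 (both pools) and 203 and 201 (control). Vha26 thus spread more widely than Vha13, with control replicate 2 the highest of its 8 libraries.

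In the central stalk, Vha36 (current symbol Vha36-1), subunit D, had 207 and 220.0 CPM (Twist), 204 and 212 (Snail), 189 and 202 (both pools) and 221 and 217 (control). Vha14 (current symbol Vha14-1), subunit F, had 86.5 and 85.1 CPM (Twist), 86.8 and 92.6 (Snail), 81.1 and 87.15 (both pools) and 94.9 and 86.5 (control). For Vha36 the both-pools libraries lay below both control libraries; for Vha14 they overlapped. The remaining V1 subunits, C and H, regulate the joining of V1 and V0. Vha44, subunit C, had 217 and 227 CPM (Twist), 195 and 182 (Snail), 194 and 201 (both pools) and 213 and 247 (control). VhaSFD, subunit H, had 236.5 and 239.9 CPM (Twist), 238 and 226 (Snail), 227 and 227 (both pools) and 243 and 255 (control). VhaSFD was lower than in both control libraries in all 6 activated libraries, by a small margin. Taken group by group, 16.2% (Twist), 21.7% (Snail) and 22.2% (both pools) of all genes were lower in this way. The share lower in all 6 at once was not counted.

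Among the V0 genes, Vha16 (current symbol Vha16-1), the c subunit, had 1893 and 1852 CPM (Twist), 1844 and 1867 (Snail), 1789 and 1845 (both pools) and 1975 and 1816 (control). VhaPPA1-1 had 543.5 and 519 CPM (Twist), 541 and 595 (Snail), 536 and 547.5 (both pools) and 580.4 and 475 (control). The control libraries enclosed or overlapped every other group in both proteolipid genes. VhaAC39 (current symbol VhaAC39-1), the d subunit that couples the stalk to the ring, had 204 and 216.5 CPM (Twist), 191 and 199 (Snail), 179 and 183 (both pools) and 203 and 218 (control). Vha100-1, a form of subunit a best known from synaptic vesicles of neurons, had 271.5 and 291 CPM (Twist), 244 and 257 (Snail), 262 and 255 (both pools) and 266 and 290.4 (control). Both genes were below both control libraries with Snail guides and with both pools.

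VhaM9.7-2 (current symbol VhaM9.7-b), a small membrane subunit e, had 199 and 198.5 CPM (Twist), 213 and 205 (Snail), 195 and 203 (both pools) and 224.5 and 196 (control). Its paralog VhaM9.7-1 (matched to VhaM9.7-c, since VhaM9.7-a has a row of its own) was lower, at 29.8 to 36.1 CPM over the libraries. VhaM8.9, which supports assembly of the pump, had 806 and 789 CPM (Twist), 802 and 832 (Snail), 770.2 and 767 (both pools) and 793 and 734 (control). Only with Snail guides did its libraries lie wholly above control. CG8029 (current symbol VhaAC45), the other accessory subunit and outside the rule, had 433 to 497 CPM.

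The genes varied over the libraries by nearly as much as other genes. The coefficient of variation over the 8 libraries had a median of 6.29% in the 17 expressed genes, with a range of 3.01% (Vha16) to 22.9% (Vha68-1). In 5035 tested genes with a mean at or above that of Vha68-1 (27.2 CPM), the median was 7.39%. Those genes were not matched to the 17 in level. The coefficient was under 10% in 15 of the 17 genes, the exceptions being the minor paralogs Vha68-1 and Vha100-2 (15.5%). Over all tested genes its median was 9.27%, itself under 10%. The summed level of all 20 genes was 6709 ± 21.9 CPM (Twist), 6435 ± 120.3 (Snail), 6381 ± 92.4 (both pools) and 6735 ± 67.9 (control) (SD, n = 2). The sum of the V1 genes was 2671 ± 3.45, 2393 ± 34.2, 2501 ± 41.3 and 2717 ± 134 CPM in the same order of groups, and that of the V0 genes 3241 ± 13.0, 3225 ± 64.4, 3111 ± 53.3 and 3255 ± 160.1 CPM. The sums were not tested.

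**Figure D2:**
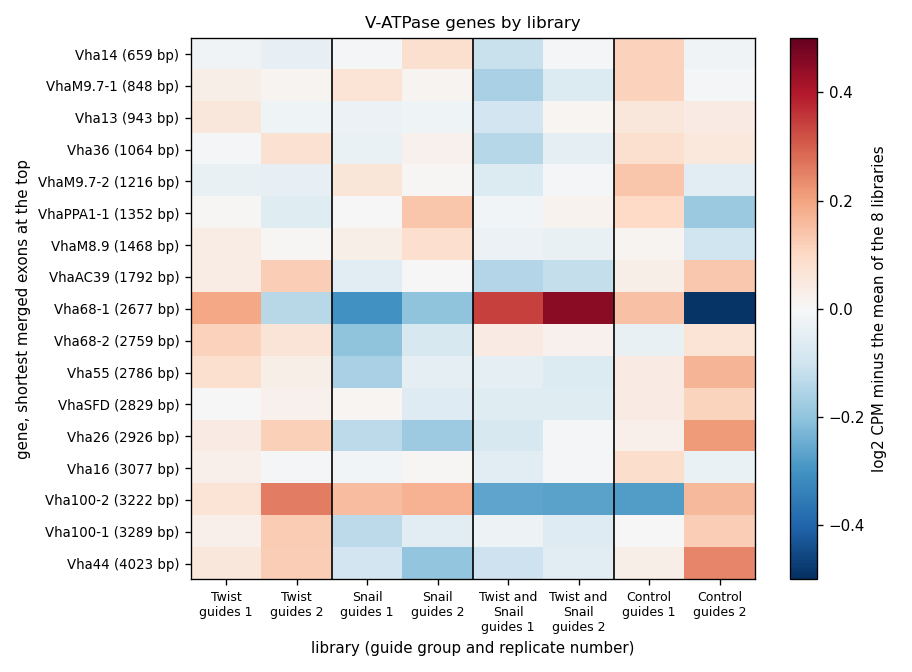
Colour gives each gene's log2 CPM minus its mean over the 8 libraries; rows are the 17 expressed genes from the shortest to the longest merged exons, columns the libraries by guide group and replicate. The strongest colours are in Vha68-1 (0.45 in both-pools replicate 2 and -0.49 in control replicate 2) and Vha100-2, and control replicate 2 is above the mean in Vha44 (0.24) and Vha26 (0.21) but below it in VhaPPA1-1 (-0.19).

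Twist guides left the pump genes close to control. None of the 17 tested genes passed edgeR's quasi-likelihood test at an adjusted p of 0.05, 0 had an unadjusted p under 0.05 (8.28% of all genes), and DESeq2 called 0. Over all genes, edgeR called 0.934% and DESeq2 0.897%. The median log2 fold change was -0.03, beside -0.01 over all tested genes, with 6 genes above 0 and 11 below. Leaving aside Vha68-1 and Vha100-2, singled out after their spread was seen, the fold changes of the other 15 genes ran from -0.08 to 0.07 and their 95% intervals stayed within -0.26 and 0.24. The intervals are per gene and not adjusted for the number of genes. Vha100-2 stood at 0.21 ± 0.13 (SE; adjusted p = 0.77) and Vha68-1 at 0.17 ± 0.19 (adjusted p = 0.92). VhaSFD alone had Twist libraries that did not overlap the control libraries, 1 of 17 genes, against 31.5% of all genes (16.2% lower). Without control replicate 1, Vha68-1 passed (0.53, adjusted p = 0.044; 4.05% of all genes called), and without control replicate 2, Vha100-2 passed (0.45, adjusted p = 0.0038; 6.17% called).

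With Snail guides, the V1 genes were slightly below control and the V0 genes mixed, but again no gene passed the test. All 9 V1 genes had a fold change below 0 (median -0.11) and 5 of 7 V0 genes did (median -0.01), beside a median of 0.00 over all genes, of which 50.1% were above 0. The shortest V1 genes, Vha14 (659 bp), Vha13 (943 bp) and Vha36 (1064 bp), stood at -0.02, -0.07 and -0.07. The long V0 genes Vha100-1 (3289 bp), Vha100-2 (3222 bp) and Vha16 (3077 bp) stood at -0.15, 0.21 and -0.03. Sector and exon length were not tested apart. edgeR called 0 of the 17 genes and DESeq2 0, and 3 had an unadjusted p under 0.05, against 0.324% called by edgeR, 1.05% by DESeq2 and 14.0% at an unadjusted p under 0.05 over all genes. The 3 were Vha44 (-0.29 ± 0.08, SE; 95% interval -0.47 to -0.10; adjusted p = 0.19), Vha26 (-0.28 ± 0.08; adjusted p = 0.2) and Vha55 (-0.21 ± 0.08; adjusted p = 0.28). Libraries did not overlap control in 10 of 17 genes, 9 lower and VhaM8.9 higher, against 43.2% of all genes (21.7% lower, 21.5% higher).

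The calls against control depended on which control libraries entered the fit. The 3 genes have long exons (2786 to 4023 bp, against a median of 2130 bp over tested genes), and control replicate 2 was the higher control library in each. Control replicate 2 also had the highest summed hemocyte markers of the 8 libraries (656 CPM, against 562 CPM in control replicate 1), although vkg (2.88 CPM) and Cg25C (3.44 CPM) were at their lowest there. Its muscle sum was the highest as well (53.2 CPM, against 40.4 CPM in control replicate 1). Mef2 gave 52.35 CPM of that sum, while wupA was lower than in control replicate 1 (0.743 against 1.74 CPM). Its tubule and gut sum was 32.1 CPM, against 16.7 CPM in control replicate 1 and 32.6 CPM in Twist replicate 2. Ncc69 gave 27.9 CPM of that sum, while Aph-4 was at its lowest there (3.81 CPM). The part of these differences in the values was not tested. Without control replicate 1, Vha44 (-0.39, adjusted p = 0.0011), Vha26 (-0.37, 0.0016) and Vha55 (-0.27, 0.018) passed, and VhaPPA1-1 passed upward (0.26, 0.029); 17.5% of all genes were then called. Without control replicate 2, only Vha100-2 passed (0.44, adjusted p = 0.016; 0.805% of all genes called). After correction for exon length, the values were -0.24 for Vha44, -0.27 for Vha26 and -0.20 for Vha55 (adjusted p = 0.17, 0.15 and 0.23).

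With both pools, most pump genes were a little below control, while Vha68-1 was above it. edgeR called 0 of 17 genes and DESeq2 0, and 4 had an unadjusted p under 0.05; over all genes, 1.57% were called by edgeR, 2.04% by DESeq2, and 16.5% had an unadjusted p under 0.05. The median fold change was -0.11, beside -0.01 over all genes, with 13 of 17 below 0. VhaAC39 stood at -0.22 ± 0.07 (SE; adjusted p = 0.18), Vha44 at -0.22 ± 0.08 (0.23) and Vha36 at -0.16 ± 0.07 (0.3). Vha68-1 stood at 0.54 ± 0.19 (95% interval 0.10 to 0.98; adjusted p = 0.23). Libraries did not overlap control in 10 of 17 genes, 9 lower and Vha68-1 higher, against 44.2% of all genes (22.2% lower, 22% higher). Without control replicate 1, 5 genes passed, Vha68-1 upward (0.89, adjusted p = 0.00054) and Vha100-2 (-0.43, 0.0033), Vha44 (-0.32, 0.0085), VhaAC39 (-0.27, 0.023) and Vha26 (-0.26, 0.029) downward, with 13.9% of all genes called; without control replicate 2, 0 passed (6.68% of all genes called).

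**Figure D3:**
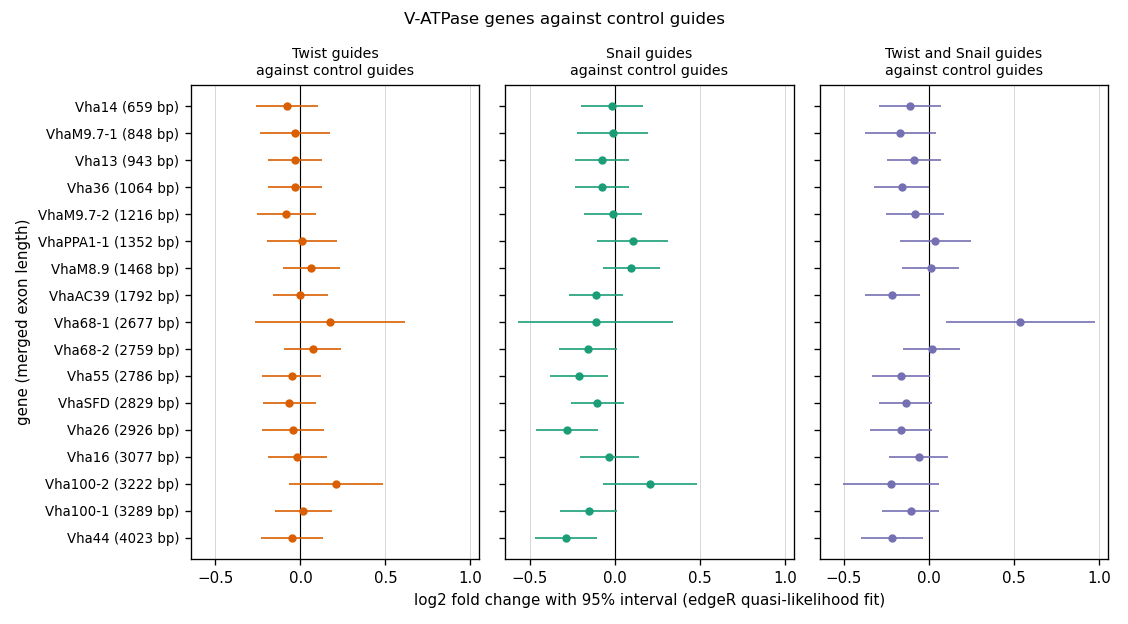
Log2 fold change against control guides with its 95% interval (edgeR quasi-likelihood fit) for the 17 expressed genes, ordered by merged exon length, in 1 panel per activated group. With Twist guides the points lie between -0.08 and 0.21, with Snail guides the lowest are Vha44 (-0.29) and Vha26 (-0.28), and with both pools Vha68-1 stands apart at 0.54 with a wide interval.

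The comparisons among activated groups do not use the control values, although the shared estimate of spread includes the control libraries. Each library's deviation from the mean of 8 was also correlated with exon length (Spearman). Over all genes this gave 0.29 and -0.0043 (Twist) and -0.34 and -0.25 (Snail). Over the 17 V-ATPase genes it gave 0.40 and 0.60 (Twist) and -0.31 and -0.45 (Snail). Vha44, Vha26, Vha68-2 and Vha100-1, named below, have 2759 to 4023 bp of exons, against a median of 2130 bp over tested genes. The part of exon length in these differences was not tested. Twist guides against Snail guides gave a fitted fold change above 0 in 12 of 17 genes, with a median of 0.04 (all genes 0.00), and 8 of 9 V1 genes were above 0 (median 0.16). edgeR called 0 of 17 genes and DESeq2 0, beside 1.08% of all genes by edgeR and 1.11% by DESeq2. Of the 17, 4 had an unadjusted p under 0.05, beside 11.9% of all genes: Vha44 (0.24 ± 0.08, SE; adjusted p = 0.32), Vha26 (0.24 ± 0.08; 0.32), Vha68-2 (0.23 ± 0.08; 0.29) and Vha100-1 (0.17 ± 0.08; 0.42). Libraries did not overlap in 9 of 17 genes, 7 higher with Twist guides and Vha14 and VhaM9.7-2 lower, against 51.9% of all genes (25.6% higher, 26.3% lower). When the 6 activated libraries were fitted alone, a fit added after seeing the data, the fold changes were alike but the standard errors near 0.06, and Vha44 (0.24, adjusted p = 0.019), Vha26 (0.24, 0.019) and Vha68-2 (0.23, 0.023) passed, 3 of 17 genes beside 10.5% of all genes. The same 3 genes passed without control replicate 1 and without control replicate 2, with 10.4% of all genes called in each case.

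Both pools against Twist guides alone gave a fitted fold change below 0 in 14 of 17 genes, with a median of -0.07 (all genes 0.01). The 2 groups also differed in twi, with 164 and 137 counts in both-pools and 345 and 384 in Twist libraries. Vha100-2 (-0.43 ± 0.13, SE; adjusted p = 0.12) and VhaAC39 (-0.21 ± 0.07; 0.16) had an unadjusted p under 0.05, 2 of 17 genes beside 18.2% of all genes. edgeR called 0 and DESeq2 0 of the 17, beside 1.05% of all genes by edgeR and 2.05% by DESeq2. Libraries did not overlap in 13 of 17 genes, 12 lower and Vha68-1 higher, against 58.6% of all genes (29% lower, 29.6% higher). In the 6 activated libraries alone, Vha100-2 (-0.43, adjusted p = 0.0013) and VhaAC39 (-0.21, 0.03) passed downward and Vha68-1 upward (0.36, 0.032), 3 of 17 beside 12.1% of all genes. Without control replicate 1 or without control replicate 2 the same 3 genes passed, beside 11.8 and 11.9% of all genes.

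Both pools against Snail guides alone gave the widest differences, again in the minor paralogs. Vha68-1 stood at 0.65 ± 0.19 (SE; 95% interval 0.21 to 1.09; adjusted p = 0.14) and Vha100-2 at -0.43 ± 0.13 (95% interval -0.71 to -0.15; 0.13). Vha68-2 stood at 0.17 ± 0.08 (0.26). These 3 of 17 had an unadjusted p under 0.05, as did 18.4% of all genes. Libraries did not overlap in 9 of 17 genes, with Vha26, Vha68-1 and Vha68-2 higher and 6 lower, against 59.7% of all genes (29.3% higher, 30.4% lower). edgeR called 0 of 17 genes beside 0.909% of all, and DESeq2 called 1, Vha68-1 (adjusted p = 0.048), beside 2.58% of all. In the 6 activated libraries alone, Vha100-2 (adjusted p = 0.00049) and Vha68-1 (0.00057) passed, 2 of 17 beside 13.9% of all genes, and the same 2 passed without control replicate 1 and without control replicate 2 (13.8% of all genes each).

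Among the 17 expressed Vha genes, Vha68-1 and Vha100-2 varied most among libraries. Vha68-1, the minor A gene, had 33.75 and 36.4 CPM (both pools), 30.4 and 24.1 (Twist), 21.5 and 23.1 (Snail) and 29.4 and 18.8 (control). The both-pools libraries were above all 6 others, and the control libraries spread from the lowest of all 8 (18.8) to the fourth highest. Per kb of exon, Vha68-1 gave 7.34 ± 0.434% of the A level in both pools, 5.57 ± 0.731% in Twist, 5.37 ± 0.0417% in Snail and 5.25 ± 1.79% in control libraries (SD, n = 2). Vha68-1 and Vha68-2 are paralogs, and whether the authors' counting split reads between them was not tested. With its 203 to 405 counts per library, Vha68-1 was also the least deeply counted expressed gene in the set.

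Vha100-2, the form of subunit a that accompanies Vha100-1 in this line, had 83.7 and 83.6 CPM (both pools), 106 and 120.3 (Twist), 112 and 114 (Snail) and 82.8 and 112.5 (control). The both-pools libraries were below all Twist and Snail libraries, while control replicate 1 was at their level and control replicate 2 at that of the Snail libraries. Its share of the per-kb subunit a level was 24.8 ± 0.354% in both pools, 29.0 ± 0.877% in Twist, 31.4 ± 0.566% in Snail and 26.2 ± 2.998% in control libraries. Vha100-1 gave nearly all the rest, since CG12602 (Vha100-5) had 6 to 14 counts per library. The departure from additivity, both pools minus the separate Twist and Snail effects, was -0.64 ± 0.18 on the log2 scale for Vha100-2 (adjusted p = 0.16; 95% interval -1.03 to -0.25). This measure assumes equal induction, but twi had 164 and 137 counts with both pools against 345 and 384 with Twist guides alone. edgeR called 0 of 17 genes for non-additivity and DESeq2 0, beside 0.174% of all genes by edgeR and 0.902% by DESeq2, and 1 of the 17 had an unadjusted p under 0.05, beside 14.6% of all genes. Without control replicate 1 the value was -0.44 (adjusted p = 0.014, 11.5% of all genes called). Without control replicate 2 it was -0.88 (0.00021, 4.84% called), and Vha68-1 then passed as well (0.76, 0.016).

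Some paralogs usually placed in the testis had low counts in every library. Their coefficients of variation were 15.2% for CG4624, 13.05% for CG13167 and 25.65% for CG8310. CG4624 (VhaAC39-2) had 143 to 224 counts per library (mean 16.8 CPM) and gave 9.10 ± 0.00354% of the per-kb d level in Twist, 12.0 ± 1.79% in Snail, 13.2 ± 0.226% in both-pools and 9.75 ± 2.28% in control libraries. CG13167 (Vha36-2), with 114 to 182 counts, and CG8310 (Vha36-3), with 13 to 40, together gave 4.46 to 6.93% of the D level. Neither CG4624 nor CG13167 passed in any comparison; the lowest adjusted p values were 0.2 for CG4624 (both pools against Twist guides, 0.39 ± 0.15, SE) and 0.21 for CG13167 (both pools against control, 0.39 ± 0.14). For subunit c, paralogs other than Vha16 gave 0 to 0.0513% of the level, and for subunit e, VhaM9.7-1 gave 18.0 to 19.7% in every library.

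**Figure D4:**
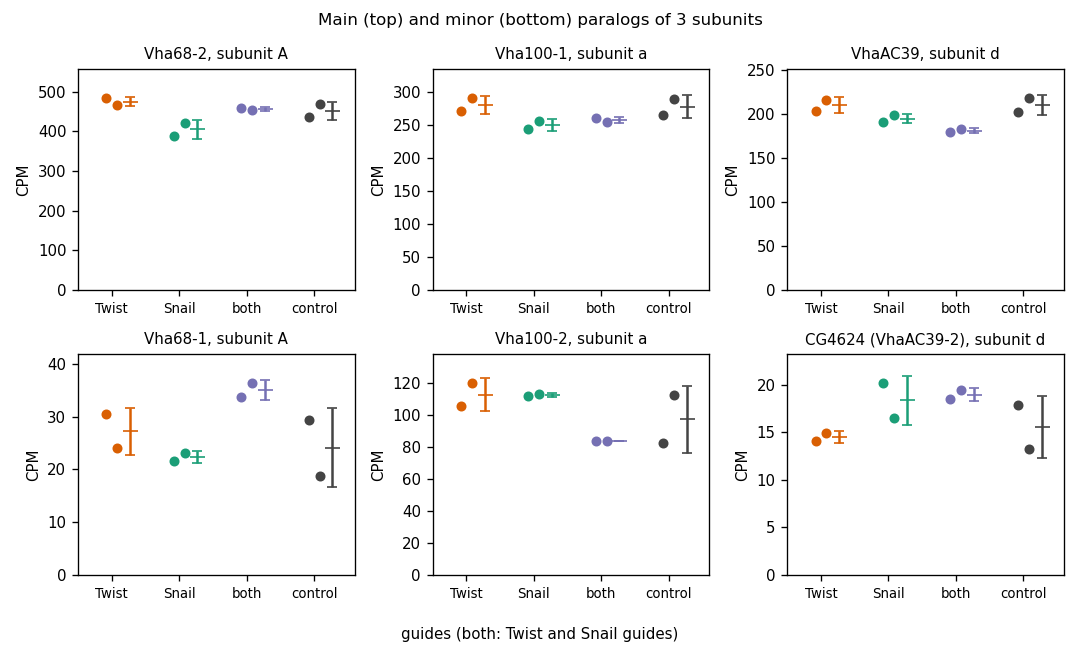
CPM by library (points) with the mean and SD of each group (n = 2, bar to the right) for the main (top row) and a minor paralog (bottom row) of subunits A, a and d; each axis starts at 0. The both-pools points lie above all others for Vha68-1 (33.75 and 36.4 CPM) and below the Twist and Snail points for Vha100-2 (83.7 and 83.6 CPM).

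Genes that act with the pump were counted beside all genes. Per comparison, edgeR called 0.174 to 1.57% of all genes and DESeq2 0.897 to 2.58%. At an unadjusted p under 0.05 the share was 8.28 to 18.4%. With shares this low, 0 calls in a short list says little about that list. Of 5 tested genes of pump assembly and regulation outside the Vha rows, 0 passed in any of the 7 comparisons in edgeR or DESeq2, and 1 had an unadjusted p under 0.05 in 1 comparison. They were Rbcn-3A and Rbcn-3B, the rabconnectin subunits that help V1 rejoin V0, Mitf, a transcription factor that drives lysosomal genes, CG8029, and mtd (listed as l(3)82Fd). That gene was mtd, at 0.30 ± 0.12 (SE) with both pools against Twist guides (adjusted p = 0.21). None of 8 tested genes of lysosomal membrane and ion transport passed by edgeR or DESeq2 or had an unadjusted p under 0.05, with fold changes between -0.25 and 0.15 in the 6 comparisons of groups.

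The list written for lysosomal nutrient sensing, in which the pump takes part with the Rag GTPases and TORC1, had 17 tested genes. Of these, 1 rose, CG12090 (Iml1, a subunit of the GATOR1 complex that restrains TORC1): it had 239.6 and 222 CPM with both pools against 169 and 169.5 with Snail guides, while the Twist libraries had 202 and 176 and the control libraries 178 and 205 (both pools against Snail 0.45 ± 0.09, SE; adjusted p = 0.044; DESeq2 0.0054). That is 1 of 17, against 0.71% of all genes called higher. It did not pass when Twist replicate 1 was left out (adjusted p = 0.051), nor without either Snail library (0.37 and 0.26) or either both-pools library (0.27 and 0.21). Nor did it pass with the replicate number as a block (0.055). In the other comparisons 0 of the 17 genes passed in edgeR or DESeq2, with 0 to 5 at an unadjusted p under 0.05 (8.28 to 18.2% of all genes). RagC, a Rag GTPase, stood at 0.25 ± 0.08 with Snail guides against control (adjusted p = 0.22). The list also held nclb (CG6751), whose role in nutrient sensing was not checked. It stood at -0.27 ± 0.08 with both pools against control (adjusted p = 0.14).

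The F-type ATP synthase of mitochondria, a related rotary enzyme, was set beside the pump. Its genes were taken as symbols beginning ATPsyn, with blw, sun and Oscp, and subunits under other symbols were not looked up. Of these 8 tested genes, 0 passed in any comparison in edgeR or in DESeq2. Over all genes, edgeR called 0.174 to 1.57% and DESeq2 0.897 to 2.58%, so 0 of 8 says little. Of the 8 genes, 0 to 4 had an unadjusted p under 0.05, beside 8.28 to 18.4% of all genes over the comparisons. Against control, their median was 0.10 in Twist, -0.02 in Snail and -0.13 in both-pools libraries. With both pools, all 8 were below 0, against 13 of 17 pump genes, and 48.6% of all genes were above 0. Both pools against Twist guides gave a median of -0.18, with Oscp, a stator subunit, at -0.30 ± 0.08 (SE; adjusted p = 0.093) and ATPsyn-d at -0.33 ± 0.09 (0.1). Values below control with both pools were therefore common to the 2 lists of genes, and the difference between the lists was not tested.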

How the data were processed

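The authors deposited a table of raw gene counts for each library, keyed by symbol. The submitters' processing notes name TopHat2 (version 2), Bowtie2, HTSeq and DESeq without role. The sources used here do not give the build, annotation, strand setting or count mode. Symbols were matched to the Ensembl annotation of BDGP6.54 and RefSeq synonyms (162 of 14161 not matched), which gave exon lengths. No sequences are shown.

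Counts were fitted with edgeR 4.0.16 (limma 3.58.1, R 4.3.3): filterByExpr at a minimum count of 10 (8029 genes tested), TMM scaling (factors 0.983 to 1.02), a robust quasi-likelihood model of 8 libraries on 4 groups (4 residual degrees of freedom), and Benjamini-Hochberg adjustment over all tested genes at 0.05. Adjusted p-values are edgeR's, or DESeq2's (version 1.42.0) where named. The procedure was tested on simulated data. With 2 libraries per group, and 1 where a library was left out, the spread was pooled over groups and assumed equal; p-values measure only the spread between these samples, which the series calls biological replicates. Alternatives were DESeq2, RLE factors, no filter, a replicate block, correction for exon length (lowess, span 0.3, for 99.1% of genes) and each library left out. Fits of the 6 activated libraries and per-kb levels on median transcript length were chosen after seeing the data. The members and lists were chosen with earlier results of these data known. The rule named every Vha gene, gave each subunit's highest gene per library, and up to 4 genes with the smallest p per list. Plots used matplotlib 3.10.9 (Python 3.11.15).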

Additional observations from a re-analysis of the deposited data

How the results depend on the processing

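The 17 pairs of a Vha gene and a comparison with an unadjusted p under 0.05 kept their direction in all 13 planned settings (221 values, 0 reversed). The pairs were picked by their p in the main fit and refitted on the same counts. A kept direction was therefore likely from the start and is little support for them. The number of Vha genes called, 0 in each of the 7 comparisons, was 1 without a filter in both pools against Twist guides, both pools against Snail guides and non-additivity (Vha100-2 each time) and 1 by DESeq2 in both pools against Snail guides. In the activated groups alone it was 3, 3 and 2 for Twist against Snail guides, both pools against Twist guides and both pools against Snail guides, where the fold changes were alike and the standard errors smaller. It was 0 with RLE factors, exon length correction and a replicate block. Over the fits that left out 1 library it was 0 to 1, 0 to 4 and 0 to 5 for Twist guides, Snail guides and both pools against control, then 0 to 3, 0 to 3, 0 to 2 and 0 to 2; only the fits without a control library gave a call. Expressed genes numbered 17 under both thresholds.

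Calls over all genes were 75, 26 and 126 for Twist guides, Snail guides and both pools against control, 87 for Twist against Snail guides, 84 and 73 for both pools against Twist and Snail guides, and 14 for non-additivity. In the same order they were 128, 218, 353, 198, 419, 436 and 236 without a filter. DESeq2 called 78 (Snail guides against control), 158, 183 and 64 (the last 3). Exon length correction gave 152 (both pools against Twist guides) and 31 (non-additivity). The activated groups alone gave 839, 969 and 1112. Leaving out 1 library gave 41 to 506, 6 to 1443, 30 to 1148, 39 to 858, 9 to 975, 9 to 1135 and 1 to 948. The cause was not tested. The replicate number paired no samples: correlations of replicate 1 deviations between groups ran from -0.15 to 0.14, and a replicate block gave 76, 35, 119, 87, 98, 55 and 18 calls. Vha68-1 had 203 to 405 counts per library and a coefficient of variation of 22.9%, while VhaM9.7-1, at 344 to 458 counts, had 5.79%.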
